A study of Mus musculus with 21 samples.

Results

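Sugar reaches the inside of a taste cell through carrier proteins and, in cells that can sense their own energy state, closes a potassium channel. The 9 genes described here encode 5 sugar carriers (Slc2a1, Slc2a2, Slc2a3, Slc2a4 and Slc5a1), 3 subunits of the ATP-sensitive potassium channel, called KATP (Kcnj11, Abcc8 and Abcc9), and the gut disaccharidase sucrase-isomaltase (Sis). They were chosen by name, as the loci of the deposited table that hold exons with one of these symbols, out of 43193 gene symbols in the annotation and 32052 loci in the table. Each of the 9 was found at exactly 1 locus.

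The samples were circumvallate taste buds, the chemosensory organs in the walls of the large papilla on the rear tongue, dissected from wild-type C57BL/6J mice aged 20 to 24 weeks. The labels name 3 groups of 7 libraries, Ad lib, Satiated and Hungry, and all 21 libraries share that strain and genotype. The deposited table gives 1 mean and 1 variance per locus and condition, and these values were the same for all 3 conditions at every locus (0 of 32052 differed). Every level below therefore pools the 21 libraries, no value per library is printed, and no fed or fasted difference, error of a group or test could be obtained.

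Facilitative carriers of the Slc2a (GLUT) family let glucose or fructose run down their gradients, whereas sodium-glucose cotransporters of the Slc5a (SGLT) family use the sodium gradient to pull sugar in. A KATP channel is built from pore subunits, Kir6.2 (Kcnj11) or Kir6.1 (Kcnj8), each paired with a sulfonylurea receptor, SUR1 (Abcc8) or SUR2 (Abcc9). In pancreatic beta cells, glucose entry raises ATP, the channel closes and the cell depolarises. The same parts are known from sweet-sensing taste cells, where they have been proposed as a route for sugar detection besides the sweet receptor Tas1r2 with Tas1r3. Disaccharidases such as sucrase-isomaltase split sucrose and maltose into monosaccharides that carriers can take up.

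The table counts fragments (read pairs or reads) scaled by a size factor, the number that brings libraries of different depth to one scale. A fragment is compatible when it matches a transcript model at the locus, and total fragments also include those that match none. Over all loci the average library held 21881979 compatible and 23769781 total fragments, and size factors read from the table ran from 0.732 to 1.80. Taste cell markers were present, with 5 of 5 type II, 4 of 4 type III and 2 of 3 type I genes detected at a mean of at least 10 compatible fragments. All 5 keratinocyte markers were detected too, from 2637 to 41906 compatible fragments, and each varied more between libraries than the authors' fitted variance. For tissue under the buds, 4 of 8 measured skeletal muscle, 3 of 8 pericyte and smooth muscle and 4 of 8 endothelial markers were detected. So were 1 of 5 adipocyte, 1 of 6 erythrocyte, 3 of 6 salivary gland and 4 of 6 nerve and Schwann cell markers. Of all loci, 42.0% were detected. In the same order of lists, 1, 1, 4, 1, 0, 1 and 2 of the detected markers stood alone at their locus. In bulk tissue, fewer cells of a type and less RNA per cell cannot be told apart.

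By that detection minimum, 7 of the 9 genes were detected, beside 42.0% of all loci. Kcnj11 and Sis fell below it. Their levels spanned from 3935 mean compatible fragments per library for Slc5a1 to 0.220 for Sis. Because long transcripts collect more fragments, the genes were also ordered by compatible fragments per kb of exon at the locus. That order ran Slc5a1, Slc2a1, Abcc9, Slc2a4, Abcc8, Slc2a2, Kcnj11, Slc2a3 and Sis. Neighbours within 1 standard deviation of each other, taken from the authors' variance, were Abcc9 with Slc2a4, Abcc8 with Slc2a2, and Kcnj11 with Slc2a3. The other neighbours in the order lay further apart than that. The ranks of Slc5a1 as the first, Slc2a1 as the second and Sis as the last were the same in all 7 ways of ordering tried. Kcnj11 moved most, from rank 8 by compatible fragments to rank 3 by total fragments per kb.

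**Figure D1:**
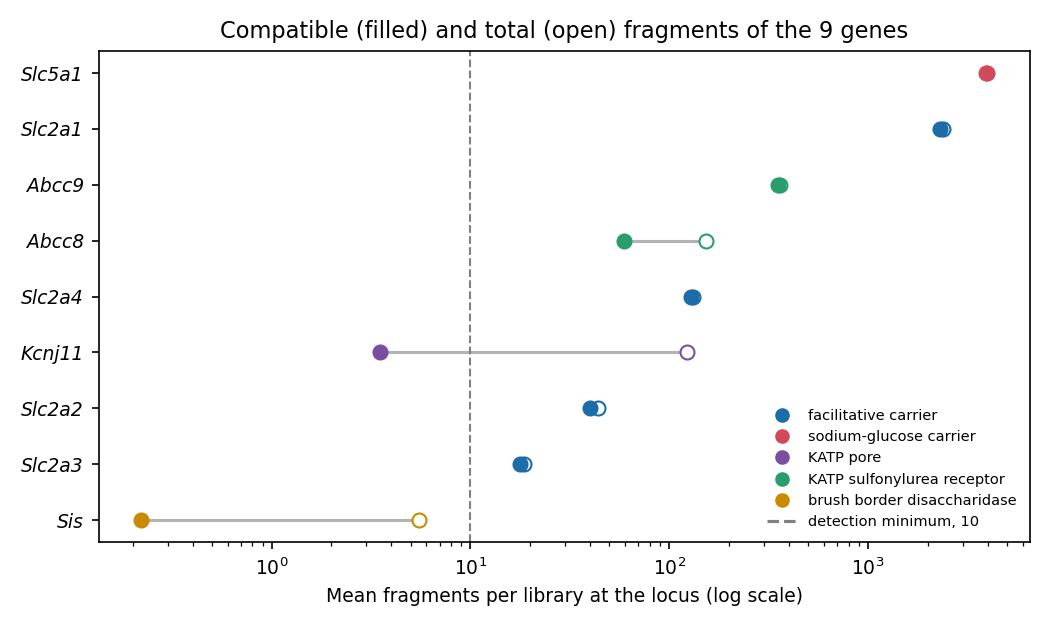
Mean fragments per library at the locus of each of the 9 genes, on a log axis, as compatible (filled) and total (open) fragments; colours give the gene's role and the dashed line marks the detection minimum of 10. Each pair of points lies close together except at Abcc8, Kcnj11 and Sis, where total fragments far exceed compatible ones.

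Slc5a1 encodes SGLT1, the sodium-glucose cotransporter of the intestinal brush border, and was the most abundant of the 9. Its locus (chromosome 5, 33104219 to 33162872, plus strand, GRCm38) had 3935 compatible and 3995 total mean fragments, so 98.5% of fragments matched a model. The level was 758 compatible fragments per kb, above 88.1% of detected loci, whose median was 121.6. Its coefficient of variation (CV, the square root of the authors' variance over the mean) was 0.143, below the median of 0.231 over detected loci. The log2 ratio of its variance to the authors' fitted variance was −0.41, against a median of −0.65 over detected loci. Against the running median of loci of like level, the log2 ratio was 0.38, and 0.26 by total fragments. The locus also holds the plus-strand gene Gm15936 (460 bases of exon) and the minus-strand gene 5033423K11Rik (627 bases), while Slc5a1's own exons make up 79.1% of its exon length. No source used here says how strand was counted, so fragments of these neighbours cannot be told apart from those of Slc5a1.

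Slc2a1 encodes GLUT1, the basal glucose carrier of many cells, among them brain capillary endothelium. Its locus (chromosome 4, 119108711 to 119138801) had 2306 compatible and 2381 total mean fragments. The level was 625 compatible fragments per kb, so Slc5a1 exceeded Slc2a1 by only 1.21 times on that scale. Slc2a1 was the steadiest of the 9, with a CV of 0.107, and only 7.44% of detected loci had a lower one. Its variance lay 1.47 below the authors' fitted variance on the log2 scale (log2 ratio −1.47), against a median of −0.65 over detected loci. Erythrocyte globin markers stood at 0.0575 to 0.148 mean compatible fragments, and Alas2 had 350 at a locus of 4 genes. Of endothelial markers, Vwf, Tek, Pecam1 and Kdr had 1508, 811, 42.6 and 10.7 mean compatible fragments. Kdr, close to the detection minimum, had a CV of 4.04, so its fragments were spread very unevenly over libraries. Cldn5 had 0.239 compatible and 7.57 total mean fragments. Tie1 had 0.0897 compatible and 0.138 total, whereas Cdh5 had 0.0403 compatible but 209 total and Emcn 0.0464 but 81.4. The part of these cells in the Slc2a1 level was not tested. The Slc2a1 locus also holds Gm12867, Gm12868 and Mir1957a, and 77.4% of its exon length is Slc2a1's own.

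The promoters of the most abundant carriers and of Sis, the least abundant of the 9, are shown for comparison. Each window runs from 250 bases before to 50 bases after the RefSeq start of the gene (GRCm38.p6), read on the coding strand. Capitals mark matches, on either strand, to TATAAA, known as the TATA box, to CCAAT, to GGGCGG, known as the GC box, or to GTTAAT (part of the site of HNF1, a factor of gut and liver).
Slc5a1, chr5:33103969-33104268, plus strand: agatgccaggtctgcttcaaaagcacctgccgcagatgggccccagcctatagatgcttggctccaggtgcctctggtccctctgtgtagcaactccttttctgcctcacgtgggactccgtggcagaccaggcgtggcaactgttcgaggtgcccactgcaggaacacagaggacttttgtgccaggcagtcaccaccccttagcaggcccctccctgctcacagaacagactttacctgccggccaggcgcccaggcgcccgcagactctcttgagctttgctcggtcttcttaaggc
Slc2a1, chr4:119108495-119108794, plus strand: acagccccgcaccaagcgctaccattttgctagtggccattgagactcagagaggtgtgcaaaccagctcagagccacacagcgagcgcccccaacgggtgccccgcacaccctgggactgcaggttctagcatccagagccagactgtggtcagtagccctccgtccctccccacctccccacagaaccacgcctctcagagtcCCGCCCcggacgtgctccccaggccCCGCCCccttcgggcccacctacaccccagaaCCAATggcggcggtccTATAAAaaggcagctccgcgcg
Sis, chr3:72967814-72968113, minus strand: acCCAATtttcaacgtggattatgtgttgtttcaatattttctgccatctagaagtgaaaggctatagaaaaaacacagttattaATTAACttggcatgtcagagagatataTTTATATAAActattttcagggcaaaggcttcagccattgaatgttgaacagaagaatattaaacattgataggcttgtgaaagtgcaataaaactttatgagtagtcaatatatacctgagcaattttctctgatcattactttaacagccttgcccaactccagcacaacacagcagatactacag

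The Slc5a1 window held none of the 4 motifs and had a GC content of 60.3%. That of Slc2a1 had a GC content of 65.3% and 4 matches, of which 2 GC boxes in reverse began 45 and 20 bases before the start. Its CCAAT and TATAAA matches lay 12 and 28 bases after the RefSeq start, and the deposited annotation starts the gene 34 bases upstream of RefSeq. The Sis window was AT-rich, with a GC content of 34.0% against a median of 52.7% over 32851 promoter windows. Its 4 matches were overlapping TATAAA hits on both strands, a CCAAT match and 1 match to the HNF1 letters in reverse, 165 bases before the start. Over all windows, TATAAA was found in 13.6%, CCAAT in 37.4%, GGGCGG in 35.7% and GTTAAT in 7.10%. Of the 9 genes, 5 had a window in the RefSeq table, the others being Slc2a2 with 2 CCAAT matches in reverse and Abcc9 with 1 GC box in reverse. A match describes letters only and shows no binding.

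Slc2a4 encodes GLUT4, the insulin-regulated carrier of muscle and fat. It stood alone at its locus (chromosome 11, 69942539 to 69948188, minus strand) with 129 compatible and 132 total mean fragments. Its level was 37.0 compatible fragments per kb, 16.9 times below Slc2a1 and above 25.5% of detected loci. The CV was 0.395, above that of 71.2% of detected loci, and the log2 ratio of variance to fitted variance was −0.54. Of skeletal muscle markers, the myosin gene Myh2 had 44.1 mean compatible fragments (4.86 per kb) and the light chain gene Mylpf had 35.0 (39.5 per kb). Ttn had 18.9 compatible but 58.0 total, and Tnnt3 had 17.9 compatible with a CV of 1.58. The undetected Myh4, Ckm, Myh1 and Mb had 7.09, 4.24, 1.26 and 1.08 mean compatible fragments. Of these muscle markers, only Mylpf and Myh4 stood alone at their locus. Among adipocyte markers, Adipoq was listed at 0 compatible but had 85.5 total mean fragments, Lep had 10.6 and 11.4, and Cidec had 0 and 0.561. Plin1 had 0.147 compatible and 0.332 total, and Fabp4 had 0.189 in both columns. The part of muscle or fat cells in the Slc2a4 level was not tested.

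Slc2a2 encodes GLUT2, the carrier of liver, gut and beta cells. Its locus (chromosome 3, 28697903 to 28781108) had 40.2 compatible and 44.0 total mean fragments. The level was 7.16 compatible fragments per kb, above only 7.17% of detected loci and 5.17 times below Slc2a4. Slc2a2's own exons make up only 49.2% of the exon length there, the rest belonging to 1700112D23Rik, Gm6505 and RP24-468O23.2. Counted over its own exons alone, the level would be 14.6 compatible fragments per kb if every fragment were its own. The CV was 0.463 and the log2 ratio to the fitted variance was −1.27.

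Slc2a3 encodes GLUT3, the high-affinity carrier of neurons. Its locus (chromosome 6, 122727809 to 122801640, minus strand) had 17.7 compatible and 18.5 total mean fragments. At 2.38 compatible fragments per kb it was the lowest of the 9 detected Slc2a carriers, and only 1.35% of detected loci were lower. Its CV of 0.724 was the highest among the 7 detected genes of the 9. Of the nerve and Schwann cell markers, Nefl and S100b reached 957 and 885 mean compatible fragments at loci shared with other genes, whereas Sox10 had 2.05 (18.2 total) and Prph 5.70. The part of nerve fibres in the Slc2a3 level was not tested.

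Among KATP genes, the sulfonylurea receptors had more compatible fragments than the pore genes. Abcc9, encoding SUR2, had 351 compatible and 361 total mean fragments (chromosome 6, 142587862 to 142702274, minus strand), or 40.02 compatible fragments per kb. Abcc8, encoding the beta cell receptor SUR1, had 59.2 compatible and 153 total mean fragments (chromosome 7, 46104523 to 46180033, minus strand), or 12.0 compatible fragments per kb. The ratio of Abcc9 to Abcc8 was 3.35 by compatible fragments per kb but 1.33 by total fragments per kb. How far Abcc9 lay above Abcc8 therefore depended on the column read. Abcc9 was the only one of the 7 detected genes whose variance exceeded the fitted variance, with a log2 ratio of 0.03 and a CV of 0.327, beside 26.1% of detected loci. Abcc9 shares its locus with the plus-strand gene RP23-330I2.1, which lies inside it with 1392 bases of exon.

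The pore genes differed in kind. Kcnj11, encoding Kir6.2, had 3.52 compatible but 123 total mean fragments (chromosome 7, 46098725 to 46099897, minus strand), so 2.85% of fragments at the locus matched its model. On the per-length scale that is 2.997 compatible and 105 total fragments per kb. By total fragments per kb, Abcc8 stood at 0.294 times Kcnj11, and by compatible fragments per kb at 3.99 times. Not divided by length, Abcc8 stood at 16.8 times Kcnj11 by compatible fragments and at 1.24 times by total fragments. The order of the beta cell pair Kcnj11 and Abcc8, whose models lie 4625 bases apart, thus turned with the column only per kb.

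Kcnj8, encoding Kir6.1 and lying 16505 bases from the Abcc9 model, had 0.0886 compatible and 0.320 total mean fragments. Its compatible mean and variance have 1 solution in whole fragments, 2 fragments over all 21 libraries, 1 in each of 2. The partner genes Abcc9 and Kcnj8, which form the vascular KATP channel, thus differed widely in level. Pericyte and smooth muscle markers near Kcnj8's level were Rgs5, listed at 0, Pdgfrb at 0.0541 and Cnn1 at 0.165 mean compatible fragments. Myh11 had 1.59, Cspg4 had 2.79 and Acta2 had 18.4, whereas Notch3 and Tagln reached 1044 and 2112 at loci shared with other genes. The part of such cells in the Abcc9 level was not tested.

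**Figure D2:**
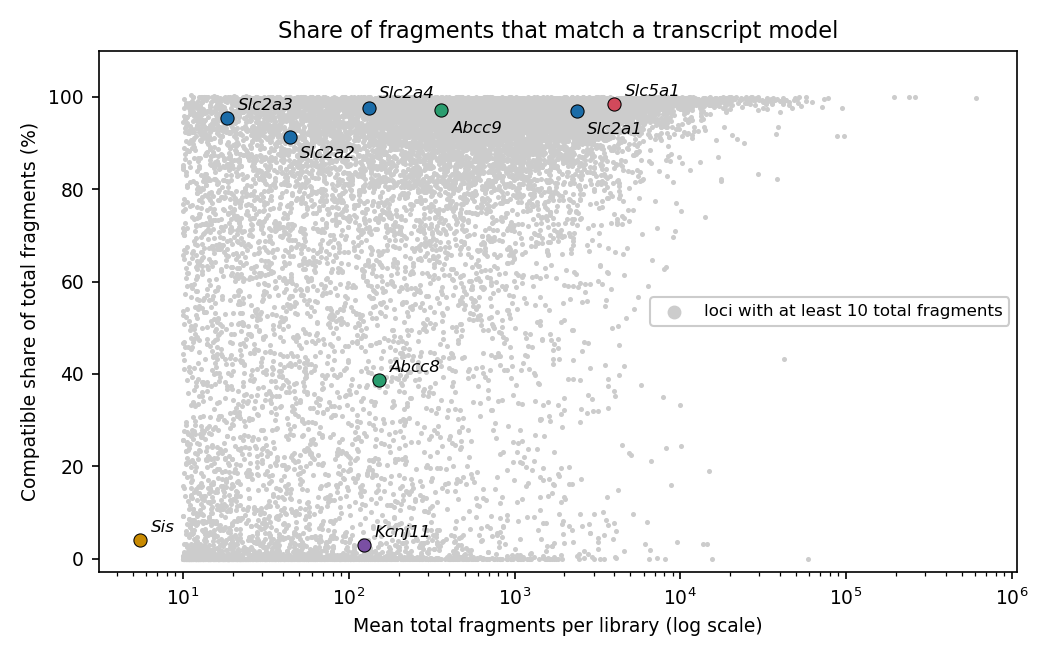
Compatible share of total fragments, in percent, against mean total fragments per library on a log axis, for the 9 genes (coloured by role) and for every locus with at least 10 total fragments (grey). Kcnj11 at 2.85%, Sis at 3.97% and Abcc8 at 38.6% sit low, and the other 6 genes lie between 91.3% and 98.5%.

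The low compatible shares of Kcnj11 and Abcc8 were set against their transcript models. Over 16133 loci with at least 10 total fragments the median compatible share was 92.7%, and 10.6% of them were at or under Kcnj11's share and 19.1% at or under that of Abcc8. The deposited Kcnj11 model is a single exon of 1173 bases that coincides with the coding sequence, with 0 bases outside it. GENCODE M21 on GRCm38 gives the gene 5 transcripts and 3677 bases of exon, of which 68.1% are outside the deposited model. The deposited Abcc8 model has 39 exons and 4952 bases, against 8090 in GENCODE M21, of which 38.8% are missing from it. For Slc2a2, 52.1% of GENCODE exon bases lie outside its own deposited models, and its locus had a share of 91.3%. GENCODE M21 extends Slc2a2 to 28731359, the base where RP24-468O23.2 ends at the same deposited locus. For Slc2a3, Slc2a4, Slc5a1 and Sis, 0% was missing, and the shares were 95.4%, 97.5%, 98.5% and 3.97%. Libraries were primed with oligo(dT), which starts at the poly(A) tail. The part of incomplete models in these shares was not tested.

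**Figure D3:**
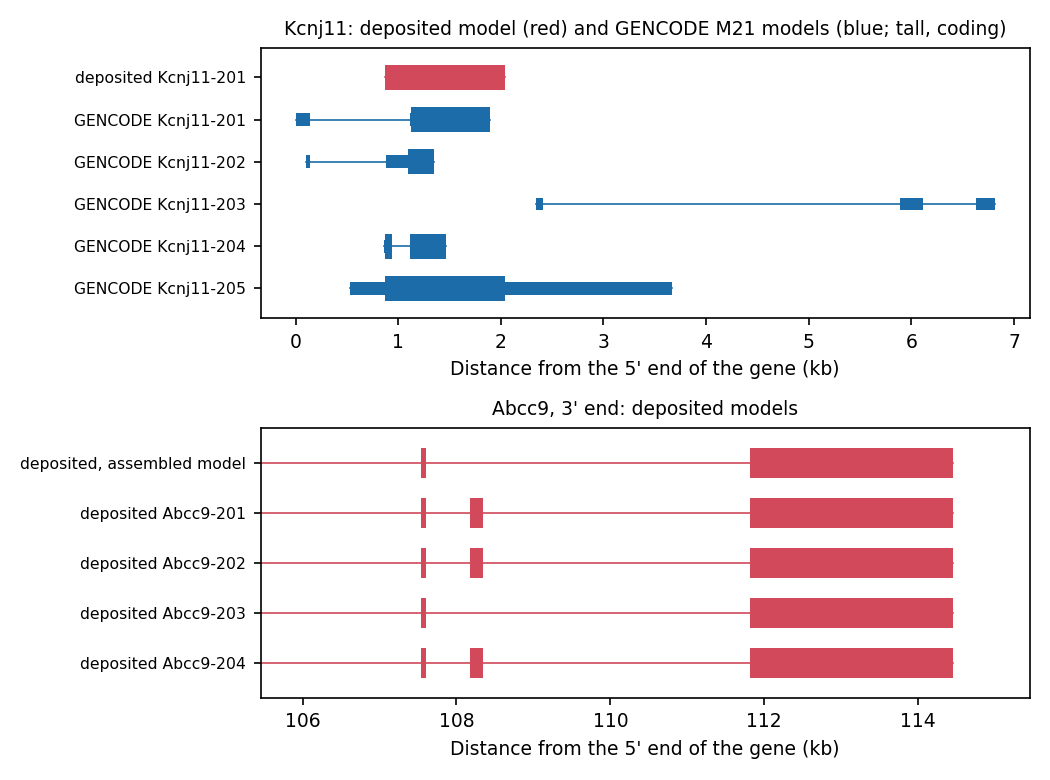
Transcript models drawn by distance from the 5′ end of the gene in kb, with deposited models in red and GENCODE M21 models in blue, where in blue tall boxes are coding and low boxes noncoding exon; names follow each annotation. The single deposited Kcnj11 exon covers only the coding part of the longest GENCODE exon, and at the 3′ end of Abcc9 the assembled model skips the 176-base exon that 3 of the 4 other models hold.

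The deposited annotation holds 42 transcript models of the 9 genes, of which 8, in 6 genes, were assembled from these libraries rather than taken over from the reference. Of the 8, 6 joined known introns in a new chain and 2 repeated the chain of a reference model, and 0 introns were absent from GENCODE M21. Slc2a4 had the most, with 3 assembled models among 11, each a new chain. Slc2a3, Abcc9 and Sis had 1 new chain each, and the assembled models of Slc2a1 and Slc2a2 followed reference chains classed as nonsense-mediated decay. Slc5a1, Kcnj11 and Abcc8 had 1 reference model and no assembled one. The table gives no level per transcript, so which model the fragments came from was not analysed here.

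The models of Abcc9 differ in the protein end they encode. The coding ends of the other genes were not compared. An exon of 176 bases (chromosome 6, 142593967 to 142594142) is held by Abcc9-201, Abcc9-202 and Abcc9-204 and skipped by Abcc9-203 and by the assembled model. Models with the exon end in the SUR2A sequence known from heart and skeletal muscle, and those without it end in the SUR2B sequence known from smooth muscle. The assembled model also lacked an exon of 105 bases (142658498 to 142658602), as did Abcc9-201, and held one of 39 bases (142648027 to 142648065) that Abcc9-204 lacked. The alternative coding ends are printed because they are what the exon choice changes. They are read from GENCODE M21 transcripts on the minus strand of chromosome 6 (GRCm38), with the stop codon in capitals.
Abcc9-201, chr6:142594005-142594142: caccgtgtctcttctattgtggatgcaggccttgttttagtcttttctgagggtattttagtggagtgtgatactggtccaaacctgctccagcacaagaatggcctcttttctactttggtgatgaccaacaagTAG
Abcc9-203, chr6:142590366-142590503: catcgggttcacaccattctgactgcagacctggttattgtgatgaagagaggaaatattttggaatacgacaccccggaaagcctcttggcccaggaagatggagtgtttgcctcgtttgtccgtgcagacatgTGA

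Both ends are 138 bases long, or 46 codons with the stop, and 70 positions (50.7%) are identical without gaps. Model Abcc9-203 and the assembled model reach the second end by joining the preceding exon to the last one.

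Sis encodes the brush border enzyme that splits sucrose and was barely present. Its locus (chromosome 3, 72888557 to 72967863, minus strand) had 0.220 compatible and 5.54 total mean fragments, or 0.0295 compatible fragments per kb. The compatible mean and variance have 1 solution in whole fragments, 5 fragments in a single library and none in the other 20. Which group that library belonged to cannot be read from the table. An assembled model of 10 exons, a new chain, stands among the 5 Sis models, the longest reference model having 48 exons.

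**Figure D4:**
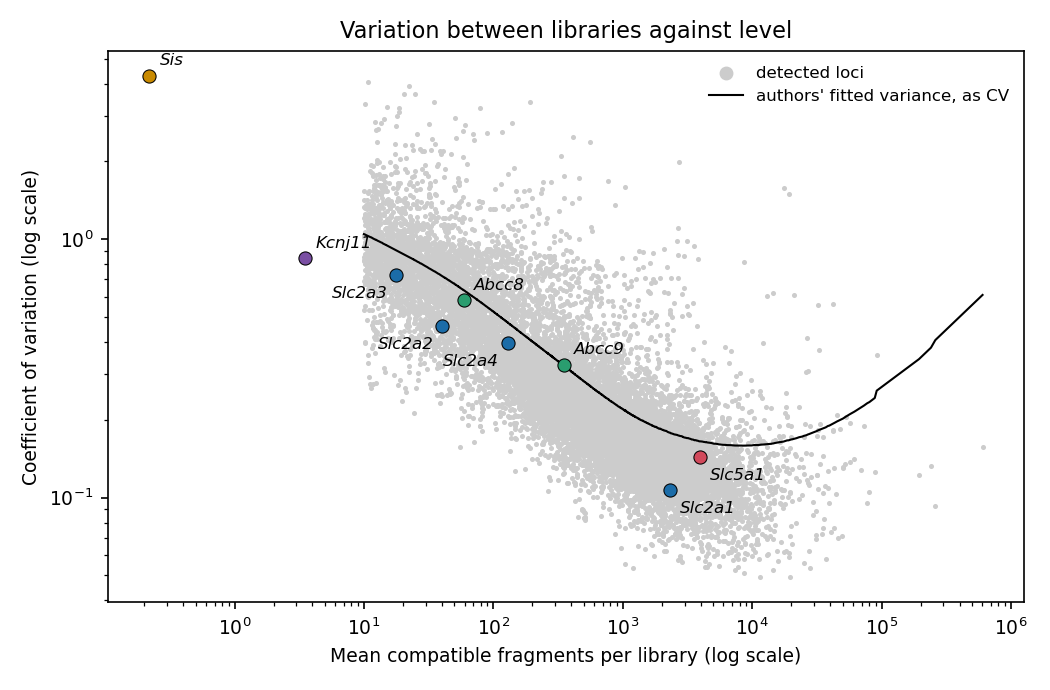
Coefficient of variation between libraries against mean compatible fragments per library, both on log axes, for the 9 genes (coloured by role) and 13467 detected loci (grey); the line is the authors' fitted variance expressed as a coefficient of variation. Slc2a1 at 0.107 and Slc5a1 at 0.143 vary least, Abcc9 lies on the line and Sis, with fragments in 1 library, is at 4.29.

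Variation among the 9 genes followed their level in most cases, as it did over all loci. The 7 detected genes had a median CV of 0.395 and a median log2 ratio to the fitted variance of −0.54, beside 0.231 and −0.65 over all detected loci. Kcnj11, undetected by compatible fragments, had a CV of 0.846 on that column and 0.421 by total fragments. For Abcc8 the corresponding CVs were 0.582 and 0.419. The variance was taken by the authors within sets of 8, 7 and 6 libraries, so differences between the means of those sets are not in these CVs. The sets cannot be assigned to the labelled groups of 7.

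Other sugar handling genes place the 9 in context. Of 33 such genes, 22 were detected (42.0% of all loci were). Among the other carriers, 9 of 14 were detected, between 3.58 and 204 compatible fragments per kb. Slc2a12, encoding GLUT12, led them with 1459 compatible fragments, or 204 per kb at a locus shared with Tbpl1 and Mir7663, and Slc2a1 exceeded it 3.07 times by compatible fragments per kb. Slc2a8, encoding GLUT8, stood at 62.8 compatible fragments per kb, 1.70 times the level of Slc2a4. Slc2a5, encoding the fructose carrier GLUT5, had 12.2 compatible fragments, and Slc2a7 was listed at 0.

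Slc5a1 was also the highest, per kb, of the 7 Slc5a genes looked at here, of which 5 were detected. It exceeded Slc5a9, encoding SGLT4, 7.17 times by compatible fragments per kb and Slc5a2, encoding the kidney carrier SGLT2, 17.7 times. The Slc5a2 locus is shared with BC017158 and Mir3103, so its own level is uncertain. Slc5a9 stood alone at its locus with 548 compatible fragments.

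**Figure D5:**
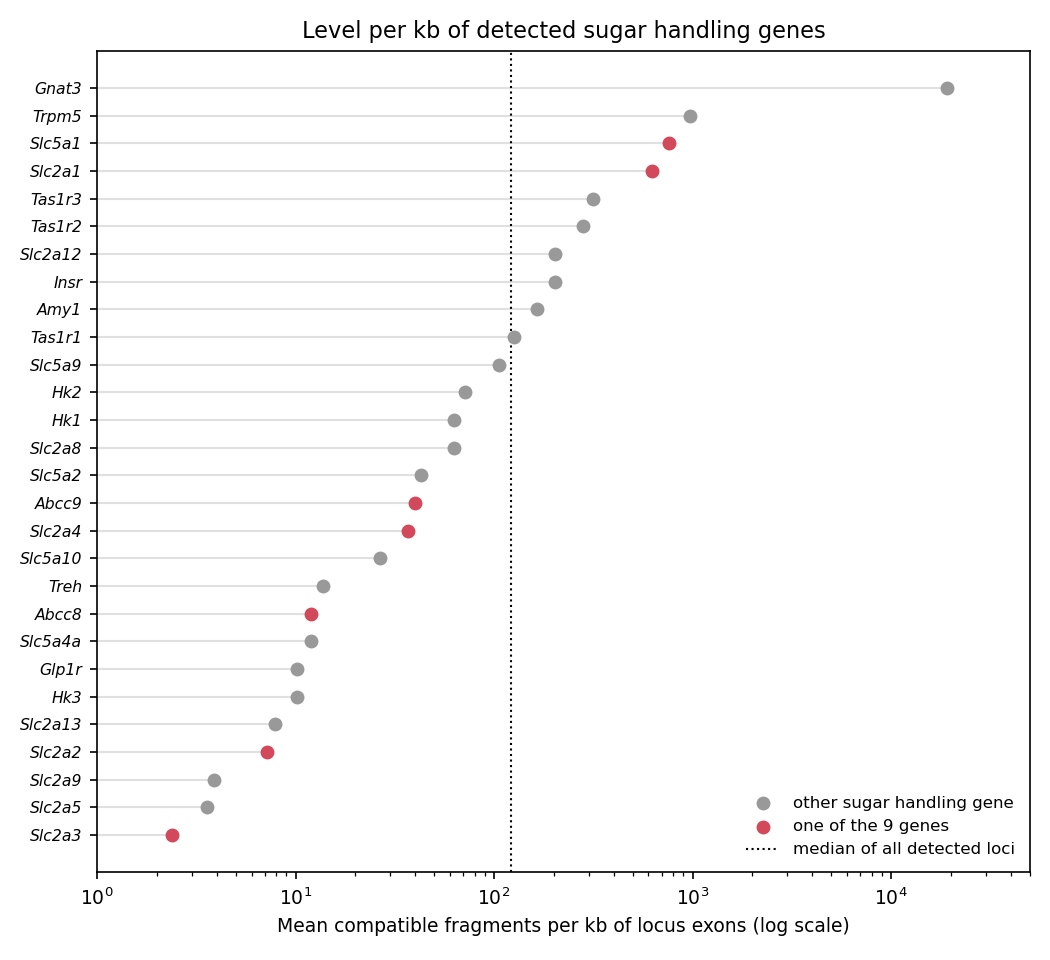
Mean compatible fragments per kb of exon at the locus, on a log axis, for the detected genes among the 9 (red) and among the other sugar handling genes reported here (grey); the dotted line is the median of all detected loci. Slc5a1 and Slc2a1 lie above the median of 121.6, between Trpm5 and Tas1r3, and the other 5 red points lie below it.

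All 5 genes of the sweet and umami route were detected, from 126 compatible fragments per kb for Tas1r1 to 19066 for Gnat3. Slc5a1 stood at 2.39 times the sweet receptor subunit Tas1r3 by compatible fragments per kb, and at 1.62 times by total fragments per kb, at a Tas1r3 locus shared with Dvl1. Over each gene's own exons alone, which are 41.5% of the exon length at the Tas1r3 locus, the ratio was 1.26. Not divided by length, the loci had 3995 and 4040 total mean fragments. Gnat3, encoding gustducin, exceeded Slc5a1 25.2 times by compatible fragments per kb. Tas1r2 lies at a locus of 6 genes, so its level was not compared.

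Digestive enzymes other than Sis were low where a locus held them alone. Mgam, encoding maltase-glucoamylase, had 1.88 compatible and 16.1 total mean fragments, and Lct, encoding lactase, had 2.22 and 3.45. Treh, encoding trehalase, and Amy1, encoding salivary amylase, had 127 and 1470 compatible fragments at loci shared with Phldb1 and Rnpc3. Their own exons make up 22.2% and 38.5% of the exon length there, so these levels cannot be told apart from those of the neighbours.

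Hexokinases trap glucose in the cell as its phosphate. Of these, Hk2 and Hk1 had 71.4 and 63.1 compatible fragments per kb, at loci shared with Gm17034 and Hk1os. Hk3 had 10.2 at a locus shared with Unc5a. Of hormone and receptor genes, Insr, encoding the insulin receptor, had 203 compatible fragments per kb at a locus shared with Gm16180, and Glp1r had 10.2. Lepr had 1.34 compatible and 12.7 total mean fragments, and Gcg was listed at 0 in both columns.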

How the data were processed

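The authors deposited a table with the columns of Cuffdiff's variance model and a merged transcript annotation. Per the file headers, its values are a signal: for each locus a mean of scaled fragments, its variance and a fitted variance, none divided by length. The submitters' processing notes name GRCm38.p4 as the build and Trimmomatic, FastQC, TopHat, Bowtie2, Cufflinks and Cuffdiff as tools, with no settings. Libraries came from oligo(dT)-primed cDNA, per the labels' protocols.

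Groups were taken from the labels. The design had assumed values per condition if these differed; the 3 conditions were identical in all 5 value columns, so no comparison of groups was run. The 9 genes, the other lists and the rule for named genes (all 9, Kcnj8, 33 sugar handling genes and locus neighbours) were chosen with earlier results of these data known. Loci were matched to genes by exons of the merged annotation, and 20 of these genes lie at a locus with several genes. The level of 1 listed gene is not reported here. Levels per kb used the union of exons of all genes at the locus. A gene counted as detected where its locus averaged 10 or more compatible fragments.

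Loci with fragments in 1 library have a variance over squared mean of 18.375, 18 or 17.5 (474, 667 and 454 loci, relative tolerance 0.0001), the values of sets of 8, 7 and 6 libraries. From such loci 1 unit per library was read, for 1 library from 28 loci with fragments in 2 libraries. Loci of at most 6 fragments were then split into whole fragments per unnamed library (relative tolerance 0.0002). Simulated data were used to try the set sizes and the units read from loci with fragments in 1 library. Splits were tried there with the true units given, and only for loci with fewer fragments than Sis holds. The step that used loci with fragments in 2 libraries was not tried. Transcript models were compared with GENCODE M21, and promoters were taken from RefSeq. Alternatives covered the column read, exon length, detection minimum, shared loci and a running median over 201 loci. Software was matplotlib 3.10.9, pandas 2.3.3 and numpy 2.4.6 under Python 3.11.15.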

Additional observations from a re-analysis of the deposited data

How the results depend on the processing

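Of the 9 genes, 7 were detected, 8 with a minimum of 1 or by total fragments, 5 with a minimum of 50, and 2 (Slc2a4 and Abcc8) when only loci of 1 gene symbol were counted. The median level of the 9 was 12.0 compatible fragments per kb, 37.9 by total fragments, and 14.6 to 15.6 with other exon lengths, of which the gene's own exons were added after seeing the data. By gene, the level per kb moved by more than the spread between libraries for Kcnj11, Abcc8 and Sis by total fragments (to 105, 31.0 and 0.742), and for Slc2a1, Slc2a2 and Slc5a1 with every other exon length. Sugar handling genes detected numbered 22, or 18 to 28 with other minimums or by total fragments, and 8 when only loci of 1 gene symbol were counted, a setting added after seeing the data.

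The median log2 ratio of variance over the detected genes of the 9 was −0.54 against the fitted variance and −0.40 at loci of 1 gene symbol. It turned positive against a running median of loci of like level, to 0.0945, and to 0.0538 by total fragments. Single genes that turned likewise were Slc2a4 (0.0945 and 0.0538), Slc5a1 (0.38 and 0.26) and Abcc8 (0.17 and 0.24). Over all detected loci the median against the fitted variance was −0.65. Slc2a1, Slc2a2 and Slc2a3 stayed below and Abcc9 above their reference under both. No paired analysis was possible because the table holds no value per library. Libraries could not be left out in turn for the same reason. Depth limits Sis and Kcnj8, each resting on at most 5 compatible fragments.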

Other observations

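Slc5a4a, encoding a relative of SGLT1, had 24.5 mean compatible fragments (chromosome 10, 76147451 to 76189265) with a CV of 0.214 and a log2 ratio to the fitted variance of −3.92. Its variance was 1.12 times its mean. Slc2a13, encoding the inositol carrier HMIT, had 87.7 mean compatible fragments with a CV of 0.866 and a log2 ratio of 1.30, at a locus shared with Gm15381, Gm15383 and Gm24647. Slc2a9 and Slc2a5 had CVs of 1.21 and 1.18 at 19.8 and 12.2 mean compatible fragments, and Slc2a10, under the detection minimum with 3.05, had a CV of 2.39. Glp1r, the receptor for the incretin GLP-1, had 15.1 mean compatible fragments with a CV of 3.25, and at least 55.1% of its scaled fragments came from 1 library. These genes were singled out after their values were seen.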
